A study of Homo sapiens with 6 samples.

Results

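The count table of the 6 libraries held 31831 genes, of which 17551 were listed as protein-coding and 16866 of those lay outside chromosomes X and Y. Among these 16866 genes, 32 had at most 3 counted read pairs in each of the 3 control libraries and at least 6 in each of the 3 libraries of cells overexpressing hnRNP-F, and these 32 genes are described here. They were chosen by the raw counts of the same 6 libraries, so their own levels and differences are a description and carry no test. The threshold of 3 sets a level near the detection limit of these libraries, and a gene below it may still have been transcribed in control cells.

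HK-2 cells, an immortalised line from the proximal tubule of the human kidney, were infected with a control lentivirus holding the empty vector (HG-NC, 3 replicates) or with a lentivirus for hnRNP-F overexpression (HG-OE, 3 replicates) and kept at 30 mM glucose over 72 h. All libraries shared the line, the high glucose and a lentiviral infection, so the comparison is of overexpression within high glucose. HnRNP-F is an RNA-binding protein that takes part in splicing, and the question was which genes change when it is raised. The methods of the study name the vector and give a gene identifier for the overexpressed sequence. The promoter of the vector and whether the infected cells came from few clones are not given in the sources used here.

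Genes that are silent in a cell type are usually held so by missing activators, by repressive chromatin or by methylation of their promoters, and a few transcripts per cell population can come from such genes without a functional product. Genes whose promoters are rich in CpG dinucleotides include most housekeeping genes and many developmental regulators, whereas tissue-restricted genes more often have promoters with few CpG. The 32 genes are best known from tissues as far apart as brain, retina, cornea, adrenal gland, smooth muscle, endothelium, lymphocytes, testis and kidney.

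HNRNPF itself was counted at 7733, 8623 and 8692 in HG-NC replicates 1 to 3 and at 12492, 13155 and 12397 in HG-OE replicates 1 to 3, which is 311 ± 8.02 and 434 ± 14.7 CPM, counts scaled to a common library size (SD, n = 3). All HG-OE libraries lay above all HG-NC libraries. Whether reads of the construct are counted in HNRNPF is not known, because the species of the overexpressed sequence was not settled, so these values may not measure the overexpression in full. Library totals were 25507595 to 27888212 counted pairs in HG-NC and 28977783 to 29444841 in HG-OE, so that a given level yielded slightly more counts in HG-OE. HG-OE replicate 3 stood apart from the other libraries by transcripts of other tissues. HG-NC replicate 3 held some of the same liver transcripts, mostly at lower counts. APOB had 5, 0 and 53 counts in HG-NC and 0, 0 and 1583 in HG-OE. FGA had 4, 0 and 65 counts in HG-NC and 0, 0 and 761 in HG-OE. ALB, the plasma albumin gene of liver, had 4, 1 and 78 counts in HG-NC and 0, 1 and 4359 in HG-OE, and the squamous keratin gene KRT5 had 0 in 5 libraries and 334 in HG-OE replicate 3. SERPINA1, which outside HG-OE replicate 3 carried most counts of a list of 22 liver markers, had 6990, 7155 and 7221 counts in HG-NC and 13250, 13347 and 11560 in HG-OE, and the other 21 summed to 310, 323 and 734 counts in HG-NC and to 300, 273 and 13271 in HG-OE. KRT10, which outside that library carried most counts of 21 squamous markers, had 1996, 2119 and 2054 counts in HG-NC and 1413, 1381 and 1256 in HG-OE, and the other 20 summed to 218, 255 and 251 counts in HG-NC and to 238, 212 and 1317 in HG-OE. As sums, these other markers were thus in excess in HG-OE replicate 3 and not in HG-OE replicates 1 and 2. A smaller excess of liver markers was in HG-NC replicate 3. The liver sums hide single genes that went opposite ways. FGB had 24, 29 and 55 counts in HG-NC and 124, 134 and 994 in HG-OE. CPS1 had 225, 248 and 274 counts in HG-NC and 129, 101 and 131 in HG-OE. Among markers of the proximal tubule, LRP2 had 0 counts in 5 libraries and 17 in HG-OE replicate 3. SLC5A1 had 0 in 5 libraries and 1 in HG-OE replicate 3, and SLC34A1 had 12 to 23 in every library. Not all markers of that tissue were low. MIOX, GATM, PDZK1, KHK and SLC5A2 each had more counts than SLC34A1 in every library. Because the rule asks for at least 6 counts in every HG-OE library, a gene counted in replicate 3 alone could not enter.

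Promoter sequences of 300 bases, from 250 bases before to 50 bases after the annotated start, were matched for 24 of the 32 genes in RefSeq (GRCh38.p14). Sequences from both ends of the range of CpG content are shown, written 5′ to 3′ on the strand of the gene with every CpG in capitals, because the genes share no single kind of promoter. DPP10 (chr2:114442391-114442690, plus strand) and CYP11A1 (chr15:74367597-74367896, minus strand) are shown for few CpG, with 5 in each window. NEURL1 (chr10:103493455-103493754, plus strand) and SLC9A3 (chr5:524400-524699, minus strand) are shown for many, with 34 and 47.
DPP10: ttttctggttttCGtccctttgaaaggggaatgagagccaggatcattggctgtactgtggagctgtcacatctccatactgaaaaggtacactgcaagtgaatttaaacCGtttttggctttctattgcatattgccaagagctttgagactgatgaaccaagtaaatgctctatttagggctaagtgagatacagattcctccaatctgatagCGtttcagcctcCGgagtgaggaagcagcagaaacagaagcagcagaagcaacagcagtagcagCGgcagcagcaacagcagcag
CYP11A1: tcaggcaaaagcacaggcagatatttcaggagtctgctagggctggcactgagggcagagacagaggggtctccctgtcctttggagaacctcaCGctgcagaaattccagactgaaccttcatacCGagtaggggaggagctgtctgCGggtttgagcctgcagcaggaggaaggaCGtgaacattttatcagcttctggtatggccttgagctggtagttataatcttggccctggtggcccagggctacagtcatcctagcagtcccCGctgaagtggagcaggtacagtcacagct
NEURL1: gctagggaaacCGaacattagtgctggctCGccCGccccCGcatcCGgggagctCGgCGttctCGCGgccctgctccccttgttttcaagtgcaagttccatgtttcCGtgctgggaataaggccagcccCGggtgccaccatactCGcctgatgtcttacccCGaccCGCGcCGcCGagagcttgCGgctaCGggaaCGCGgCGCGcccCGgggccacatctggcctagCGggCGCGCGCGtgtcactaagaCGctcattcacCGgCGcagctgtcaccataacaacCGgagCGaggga
SLC9A3: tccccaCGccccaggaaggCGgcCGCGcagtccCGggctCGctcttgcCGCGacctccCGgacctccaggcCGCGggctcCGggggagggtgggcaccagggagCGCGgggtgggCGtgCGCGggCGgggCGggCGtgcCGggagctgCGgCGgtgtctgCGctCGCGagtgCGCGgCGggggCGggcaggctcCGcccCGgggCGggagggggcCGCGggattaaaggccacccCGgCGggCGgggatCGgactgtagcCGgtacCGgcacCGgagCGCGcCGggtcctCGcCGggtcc

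The observed over the expected number of CpG, which corrects for base composition, was 0.32 in the DPP10 window and 0.23 in the CYP11A1 window. It was 1.05 in the NEURL1 window and 0.97 in the SLC9A3 window, near the value of 1 that base composition alone would give. Over the 24 matched genes the ratio ran from 0.103 in CATSPER3 to 1.13 in C3orf70, with a median of 0.719. Other protein-coding genes with at most 3 counts in each HG-NC library (n = 1718) had a median of 0.367, and genes above that level (n = 11169) had a median of 0.827. The members' median thus lay between these groups of genes, and 14 of the 24 (58.3%) had a ratio of at least 0.6, against 32.7% of the other low genes and 79.4% of the higher ones. The motif TATAAA, searched on both strands, was in the window of 0 of the 24 genes, in 17.5% of the other low genes and in 7.68% of all 12911 protein-coding genes with a window. These shares were compared without a test, and an absent match says only that these letters were not in this window. Members needed at least 6 counts in each HG-OE library, whereas 1650 of the 2470 genes low in HG-NC stayed at 3 or less there. The differences in CpG content and TATAAA can therefore not be read as traits of the members. The IL21R window (chr16:27427021-27427320) lies inside its GENCODE 44 gene body, which starts at 27402174. The 8 genes without a matched window were CCN4, CSMD3, DPYS, GGT5, IGDCC3, LRRN4CL, PREX2 and RND2.

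**Figure D1:**
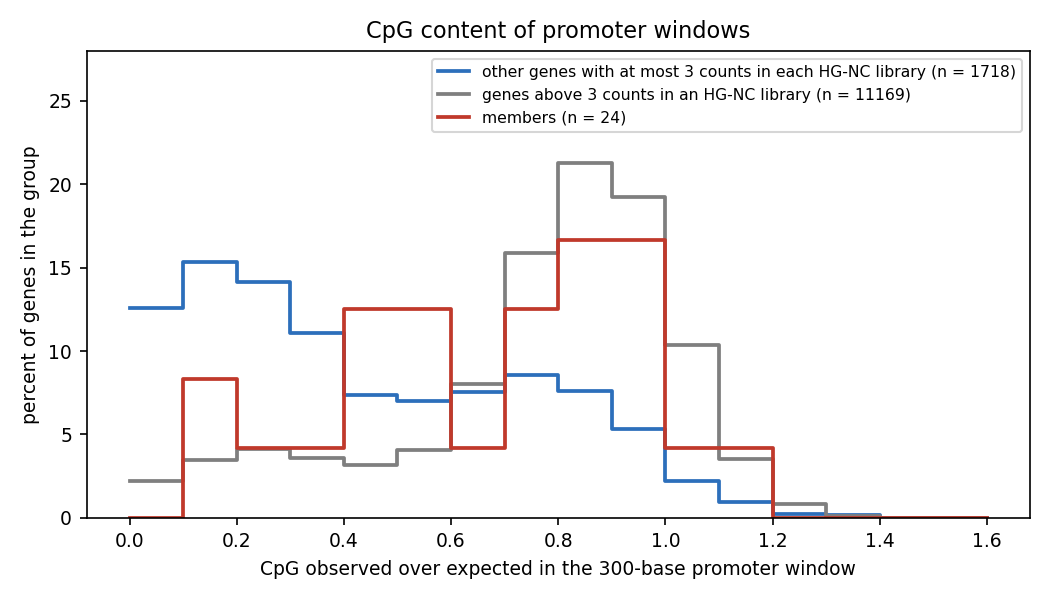
Percent of genes (y axis) in bins of the CpG observed over expected ratio in the 300-base promoter window (x axis), for the 24 members with a window (red), other protein-coding genes with at most 3 counts in each HG-NC library (blue, n = 1718) and genes above that level (grey, n = 11169). The members spread over most of the range, with 14 of 24 at a ratio of 0.6 or more.

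Levels were low in every member. Mean HG-OE counts ran from 6.67 in CCN4 to 51.7 in IQCA1, with a median of 12.5 over the 32 genes, and 21 genes reached a mean of 10 and 8 a mean of 20. On the scale per length that allows genes to be compared, the mean in HG-OE was 0.0233 FPKM in CSMD3 to 0.400 FPKM in FOXQ1, with a median of 0.0867 FPKM against 2.36 FPKM over all protein-coding genes outside X and Y. These levels fell at percentiles 12.98 to 29.6 of protein-coding genes in HG-OE, so no member came near the middle of the expressed range. In RNA from whole cultures, few cells with many copies and many cells with few copies cannot be told apart. Counting error alone is large at this depth, and the intervals below cover only that error. The summed counts of the 32 genes were 39, 41 and 51 in HG-NC and 454, 508 and 666 in HG-OE. Without FOXQ1 and PREX2, picked here because of their spread, the sums were 38, 38 and 50 in HG-NC and 427, 461 and 490 in HG-OE, and the excess of HG-OE replicate 3 was smaller.

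**Figure D2:**
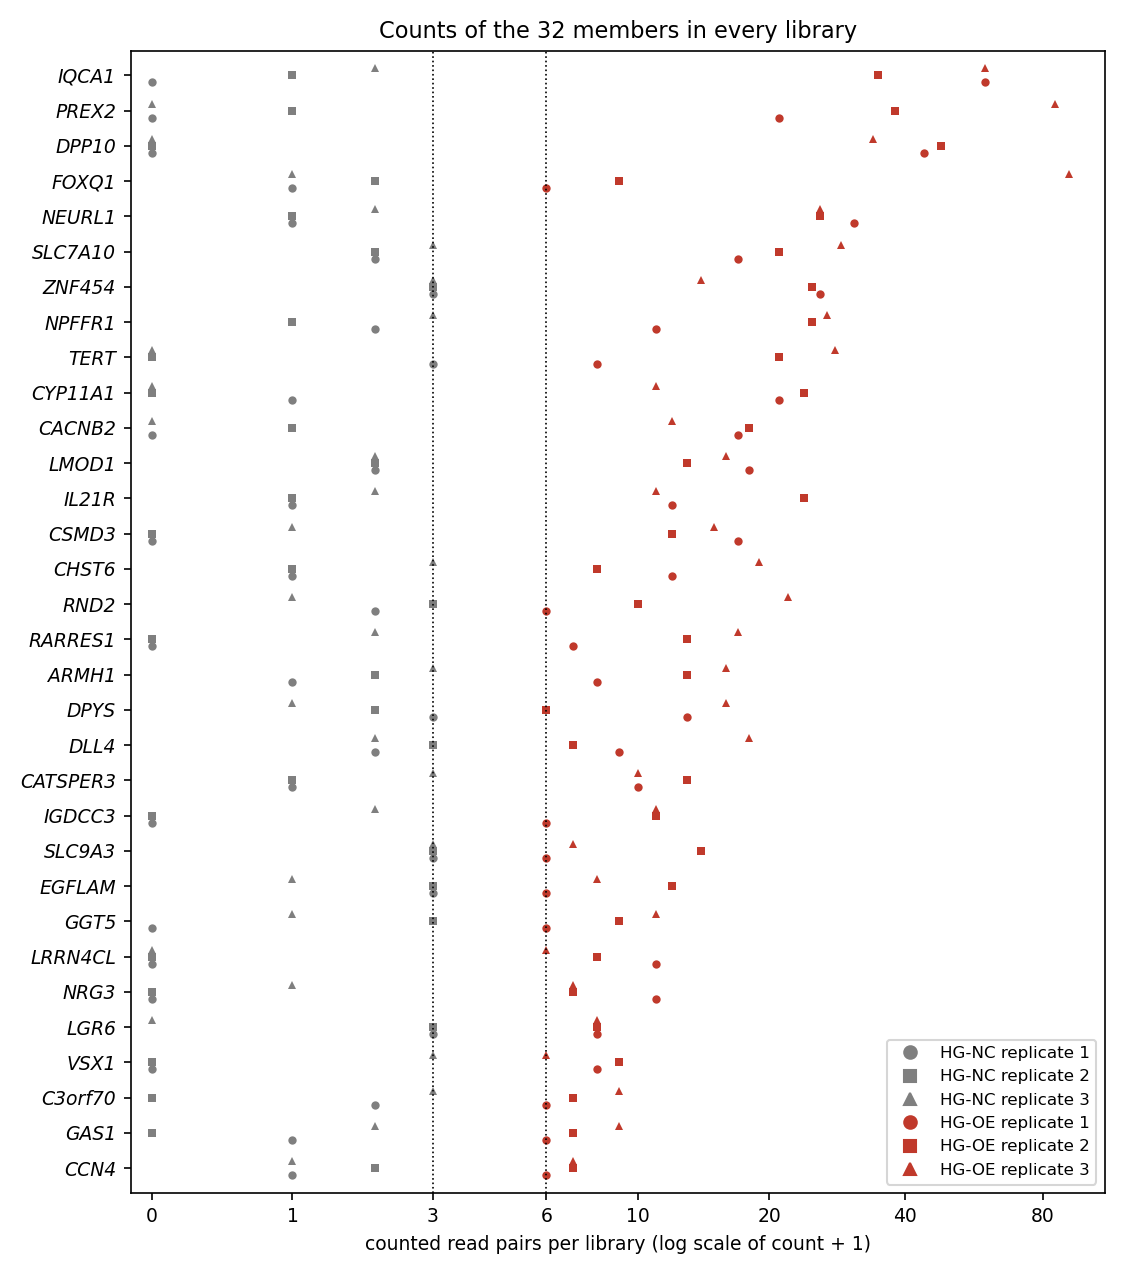
Counted read pairs of each of the 32 members (y axis, ordered by mean HG-OE count) in every library (x axis, log scale of count + 1), with HG-NC in grey, HG-OE in red and symbols for replicates 1 to 3. The dotted lines mark the thresholds of 3 and 6 that chose the genes, many points lie on them, and FOXQ1 and PREX2 show the widest HG-OE spread, with their highest counts in replicate 3.

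Members of signalling pathways were led by PREX2, an exchange factor that activates Rac. PREX2 had 0, 1 and 0 counts in HG-NC replicates 1 to 3 and 21, 38 and 85 in HG-OE replicates 1 to 3, and all counts below are given in that order. Every HG-OE library was above every HG-NC library, but the highest HG-OE count was 4.05 times the lowest. NEURL1, an E3 ubiquitin ligase that acts on Notch ligands and is best known from brain, had 1, 1 and 2 counts in HG-NC and 31, 26 and 26 in HG-OE. Its HG-OE libraries were nearly even, and the ratio of the groups in CPM was 19.0 (95% counting interval 7.16 to 71.5). DLL4, a Notch ligand of endothelium, had 2, 3 and 2 counts in HG-NC and 9, 7 and 18 in HG-OE. RND2, a small GTPase studied in neurons, had 2, 3 and 1 counts in HG-NC and 6, 10 and 22 in HG-OE. Both genes were highest in HG-OE replicate 3 and sat close to the thresholds in another library.

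Receptors formed a further group. NPFFR1, a receptor for RF-amide neuropeptides, had 2, 1 and 3 counts in HG-NC and 11, 25 and 27 in HG-OE. IL21R, the receptor chain for interleukin-21 on lymphocytes, had 1, 1 and 2 counts in HG-NC and 12, 24 and 11 in HG-OE, so its highest library was replicate 2. The 3 HG-OE libraries of LGR6, a receptor for R-spondins that marks stem cells of skin, were equal at 8, 8 and 8 counts, beside 3, 3 and 0 in HG-NC. LGR6 had fewer counts than NPFFR1 and IL21R in every HG-OE library. GAS1, a co-receptor for hedgehog proteins, had 1, 0 and 2 counts in HG-NC and 6, 7 and 9 in HG-OE. IGDCC3, a relative of the netrin receptor DCC, had 0, 0 and 2 counts in HG-NC and 6, 11 and 11 in HG-OE. LGR6 and GAS1 thus lay within a few counts of the thresholds in every HG-OE library, while NPFFR1 and IL21R stood clear of them. Secreted members were NRG3 and CCN4. NRG3, a neuregulin of the nervous system that binds ERBB4, had 0, 0 and 1 counts in HG-NC and 11, 7 and 7 in HG-OE. CCN4, a matricellular protein induced by Wnt signalling, had 1, 2 and 1 counts in HG-NC and 6, 7 and 7 in HG-OE, the lowest HG-OE mean of the 32 genes.

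Channel subunits and transporters included DPP10, a peptidase-like protein without enzyme activity that modulates Kv4 potassium channels in neurons. DPP10 had 0 counts in all 3 HG-NC libraries and 44, 48 and 34 in HG-OE, at least 38.5-fold higher in HG-OE against a floor of 3 counts over the HG-NC group. No other member combined 0 counts in HG-NC with counts of this size in each HG-OE library. CACNB2, a beta subunit of voltage-gated calcium channels best known from heart, had 0, 1 and 0 counts in HG-NC and 17, 18 and 12 in HG-OE. The sperm calcium channel subunit CATSPER3 had 1, 1 and 3 counts in HG-NC and 10, 13 and 10 in HG-OE. Both were even across HG-OE, with ratios of the highest to the lowest library of 1.5 and 1.3. SLC7A10, a transporter of small neutral amino acids in brain, had 2, 2 and 3 counts in HG-NC and 17, 21 and 29 in HG-OE, 8.78 times as high in CPM (95% counting interval 4.03 to 22.7). SLC9A3 encodes the sodium-proton exchanger of the apical membrane of the proximal tubule, the tissue from which HK-2 cells come, and it had 3, 3 and 3 counts in HG-NC and 6, 14 and 7 in HG-OE. Its ratio of 2.75 (95% counting interval 1.26 to 6.65) was the lowest of the 32 genes, and both groups touched the thresholds.

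Among the enzymes, CYP11A1 makes pregnenolone from cholesterol in adrenal gland, gonads and placenta. CYP11A1 had 1, 0 and 0 counts in HG-NC and 21, 24 and 11 in HG-OE, a ratio of 51.4 whose 95% counting interval, 8.85 to 2065, is wide because it rests on a single HG-NC count. TERT, the catalytic subunit of telomerase, had 3, 0 and 0 counts in HG-NC and 8, 21 and 28 in HG-OE. The HG-OE counts of TERT were uneven and its lowest was within a few counts of the highest HG-NC count. CHST6, the sulfotransferase of keratan sulfate in cornea, had 1, 1 and 3 counts in HG-NC and 12, 8 and 19 in HG-OE. DPYS, the dihydropyrimidinase of liver and kidney that breaks down pyrimidines, had 3, 2 and 1 counts in HG-NC and 13, 6 and 16 in HG-OE. GGT5, which cleaves the gamma-glutamyl group of leukotriene C4, had 0, 3 and 1 counts in HG-NC and 6, 9 and 11 in HG-OE. DPYS and GGT5 each touched both thresholds in a library.

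Transcription factors were led by FOXQ1, a forkhead factor of stomach and hair. FOXQ1 had 1, 2 and 1 counts in HG-NC and 6, 9 and 91 in HG-OE. Of its HG-OE counts, 85.8% came from replicate 3, the library that stood apart by transcripts of other tissues. Its HG-OE mean of 0.400 FPKM, the highest of the members, rests on that library. ZNF454, a KRAB zinc finger protein of a family that mostly represses transcription, had 3, 3 and 3 counts in HG-NC and 26, 25 and 14 in HG-OE. VSX1, a homeobox factor of retinal bipolar cells, had 0, 0 and 3 counts in HG-NC and 8, 9 and 6 in HG-OE. For ZNF454 the HG-NC libraries all sat at the threshold but the HG-OE libraries stood well clear of it, whereas VSX1 was near the thresholds in both groups.

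Cytoskeletal, ciliary and surface proteins made up most of the rest. IQCA1, an ATPase of the nexin-dynein regulatory complex of motile cilia, had 0, 1 and 2 counts in HG-NC and 60, 35 and 60 in HG-OE, the highest HG-OE mean count of the 32 genes, with a ratio of 47.4 (95% counting interval 15.9 to 232). LMOD1, a leiomodin that nucleates actin in smooth muscle, had 2, 2 and 2 counts in HG-NC and 18, 13 and 16 in HG-OE. Both were well above the HG-NC libraries in each HG-OE library. CSMD3, a very long gene of brain for a large membrane protein, had 0, 0 and 1 counts in HG-NC and 17, 12 and 15 in HG-OE. RARRES1, a membrane protein induced by retinoic acid, had 0, 0 and 2 counts in HG-NC and 7, 13 and 17 in HG-OE. EGFLAM, or pikachurin, which binds dystroglycan at photoreceptor synapses, had 3, 3 and 1 counts in HG-NC and 6, 12 and 8 in HG-OE. CSMD3 was even across HG-OE and clear of the thresholds, RARRES1 was spread more widely, and EGFLAM touched both thresholds.

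Less is known of the remaining members. ARMH1 had 1, 2 and 3 counts in HG-NC and 8, 13 and 16 in HG-OE. C3orf70 had 2, 0 and 3 counts in HG-NC and 6, 7 and 9 in HG-OE. LRRN4CL had 0 counts in all HG-NC libraries and 11, 8 and 6 in HG-OE, at least 7.64-fold higher against the floor of 3 counts over the group. DPP10 and LRRN4CL were the only 2 members listed at 0 in every HG-NC library.

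Many members stood at the edge of the rule. A count of 3 was present in an HG-NC library for 16 of the 32, a count of 6 in an HG-OE library for 12, and either for 21. Outside the rule by a single count were 19 genes, 10 with a count of 4 in HG-NC and 9 with a count of 5 in HG-OE. RNF175 was the most abundant of these in HG-OE except in replicate 3, with 4, 3 and 2 counts in HG-NC and 38, 27 and 36 in HG-OE. SMOC1, a secreted matrix protein, had 2, 3 and 4 counts in HG-NC and 15, 21 and 29 in HG-OE. Both were picked for mention because of their values. They resembled members such as ZNF454 and SLC7A10 in counts, so the boundary of the group is a matter of single counts. With at most 1 count in HG-NC and at least 10 in HG-OE, 5 members were left: CACNB2, CSMD3, CYP11A1, DPP10 and PREX2. With every count scaled to the smallest library total, 20 genes met the rule.

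Replicates weighed differently in what was counted. In 2470 protein-coding genes outside X and Y, each HG-NC library had at most 3 counts, and the 32 members were 1.30% of these. A count of 6 or more was reached in HG-OE replicate 1 alone by 30 of the 2470 genes, in replicate 2 alone by 34 and in replicate 3 alone by 429. The plot of genes by library shows this excess of replicate 3, the library with liver and squamous transcripts. Another 43 genes reached 6 in exactly 2 HG-OE libraries, and 1650 stayed at 3 or less in all of them. Among the members, the single highest HG-OE library was replicate 1 for 6 genes, replicate 2 for 8 and replicate 3 for 14, and in 18 the highest count was under 2 times the lowest. Without HG-OE replicate 3, 40 genes met the rule, the 32 members and 8 more, among them CHRM5 with 0, 1 and 1 counts in HG-NC and 9, 17 and 5 in HG-OE. The rule turned around, with at least 6 counts in each HG-NC library and at most 3 in each HG-OE library, was met by 5 of 1904 genes (0.263%), against 1.30% in the direction of the members. The larger totals of the HG-OE libraries favour the direction of the members in this comparison. With every count scaled to the smallest total 20 genes met the members' rule and 3 the rule turned around. The rule turned around also asks for at most 3 counts in HG-OE replicate 3, and the members' rule asks for the same in HG-NC replicate 3. Extra transcripts in either library can keep genes out of the rule that sets this limit there. The liver transcripts were mostly at lower counts in HG-NC replicate 3. What part they had in these numbers was not tested. DES, the muscle intermediate filament gene, was among the 5 genes of the rule turned around. It had 8, 7 and 7 counts in HG-NC and 0, 0 and 3 in HG-OE. The others were WFIKKN2, MB, SLIT1 and CCDC187.

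**Figure D3:**
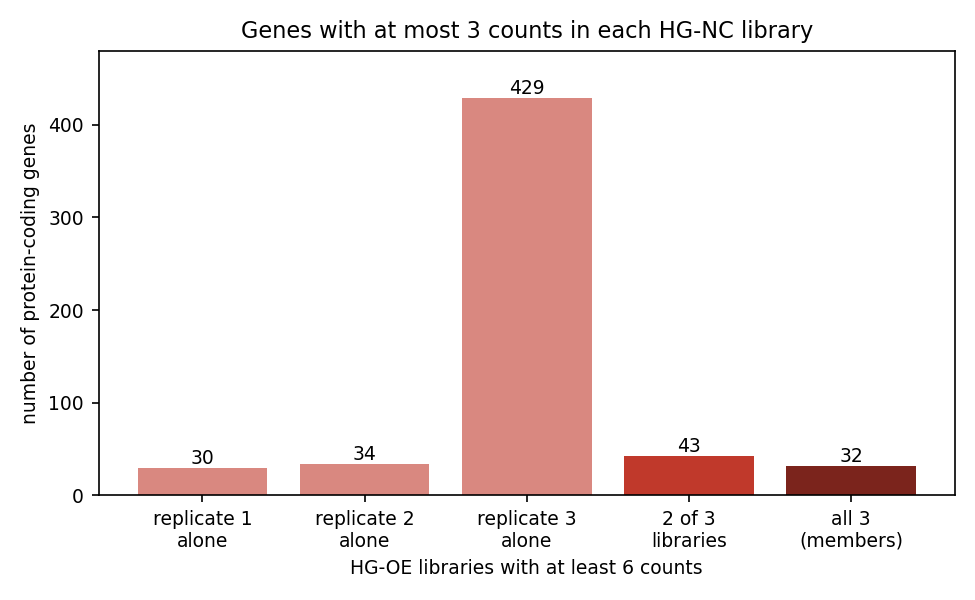
Number of protein-coding genes (y axis) among the 2470 with at most 3 counts in each HG-NC library, by the HG-OE libraries in which they reached 6 counts (x axis). The bar for replicate 3 alone holds 429 genes, against 30 and 34 for replicates 1 and 2 alone, 43 for exactly 2 libraries and 32 for all 3.

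Across the 17142 genes that passed the filter on low counts, 997 were called (5.82%), which asked for a change of 2-fold or more and an edgeR adjusted p below 0.05. Of these, 632 were called higher in HG-OE (3.69%) and 365 lower (2.13%). Of the 32 members, 12 passed that filter and these 12 were called higher, which the rule made nearly certain, so nothing is read from it. The 12 were CACNB2, CSMD3, CYP11A1, DPP10, IL21R, IQCA1, LMOD1, NEURL1, NPFFR1, PREX2, SLC7A10 and ZNF454, and the other 20 had too few counts to be tested. The groups did not overlap in any member, again by the rule, and were apart and higher in HG-OE for 29.3% of all genes tested.

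The members lay on 15 chromosomes, with 5 on chromosome 5 (CATSPER3, EGFLAM, SLC9A3, TERT and ZNF454), 4 on chromosome 8 (CCN4, CSMD3, DPYS and PREX2) and 4 on chromosome 10 (CACNB2, NEURL1, NPFFR1 and NRG3). Chromosomes 5, 8 and 10 held 783, 585 and 668 of the 16866 genes. Only 2 pairs were within 1 Mb of each other. LMOD1 (chr1:201896456-201946548) and LGR6 (chr1:202193799-202319781) were 247 kb apart, and SLC9A3 (chr5:470456-524449) and TERT (chr5:1253147-1295068) were 729 kb apart, by GENCODE 44 gene bodies on GRCh38. The members were otherwise scattered. Gene bodies spanned 2.66 kb in FOXQ1 to 1403 kb in DPP10, with a median of 46.8 kb, against 20.8 kb for the protein-coding genes with at most 3 counts in each HG-NC library and 31.4 kb for all. CSMD3 at 1214 kb and NRG3 at 1112 kb were also of great length, so the group held several of the long genes of brain. The rule asked for raw counts, which long transcripts reach at a lower level, and the genes compared had no such requirement. The difference in length can therefore not be read as a trait of the members.

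Neighbours of the members were not used by the rule, and their counts can be tested. Of 349 tested genes within 500 kb of a member, 14 were called higher (4.01%) and 5 lower (1.43%), against 3.69% and 2.13% of all genes tested. Among the 280 protein-coding neighbours 8 were called higher and 2 lower, against 3.18% and 1.94% of all protein-coding genes tested. The shares called were near the background, which is no result about the members. The median log2 fold change was 0.09 for these neighbours and 0.01 for all genes tested. At least 1 neighbour was called higher beside 9 members and lower beside 5, and 3 members (PREX2, CSMD3 and NRG3) had no tested neighbour. Leaving out a library in turn gave 12 to 19 neighbours called higher.

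Closest to a member among the called neighbours without an overlap were LRRC20, PITX1 and ZFP2. LRRC20, a leucine-rich repeat gene 15.0 kb from NPFFR1, had 403, 580 and 546 counts in HG-NC and 1228, 1335 and 1316 in HG-OE, for a log2 fold change of 1.23 ± 0.0858 (SE, edgeR adjusted p = 8.43e-08). PITX1, a homeobox factor of hindlimb and pituitary 16.04 kb from CATSPER3, had 5, 9 and 8 counts in HG-NC and 120, 103 and 223 in HG-OE, for a log2 fold change of 4.2 ± 0.348 (SE, edgeR adjusted p = 3.73e-07). These HG-NC and HG-OE libraries were far apart in both genes, and PITX1 stayed called without any single library, with a log2 fold change of 3.79 without HG-OE replicate 3. ZFP2, a zinc finger gene 7.98 kb from ZNF454, had 11, 2 and 10 counts in HG-NC and 24, 20 and 24 in HG-OE, for a log2 fold change of 1.43 ± 0.447 (SE, edgeR adjusted p = 0.0160). Without HG-NC replicate 2 its value was 0.97 with an adjusted p of 0.0524, and the DESeq2 adjusted p was 0.0673, and this call rests on that library.

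Other called neighbours were farther off or rested on HG-OE replicate 3. RNU5B-1, a small nuclear RNA gene 22.3 kb from IGDCC3, had 3, 0 and 2 counts in HG-NC and 11, 12 and 242 in HG-OE, with a log2 fold change of 5.50, and of 2.58 without HG-OE replicate 3. CYP1A1, an enzyme induced by aryl hydrocarbons 352 kb from CYP11A1, had 31, 19 and 22 counts in HG-NC and 46, 47 and 395 in HG-OE, with a log2 fold change of 2.63, which was 0.83 and no longer called without HG-OE replicate 3. In the same region CYP1A2, 381 kb from CYP11A1, had 29, 38 and 55 counts in HG-NC and 23, 17 and 19 in HG-OE, and was called lower at -1.15 but not without HG-NC replicate 3, where it was -0.91. The CYP11A1 region thus held genes called in opposite directions, both resting on a library. SNHG1, a host gene of small nucleolar RNAs 162 kb from LRRN4CL, had 7069, 7134 and 7409 counts in HG-NC and 4211, 3903 and 3539 in HG-OE, for a log2 fold change of -1.01 ± 0.0563 (SE, edgeR adjusted p = 1.11e-08). Its fall stood near the 2-fold threshold and was -0.99 without HG-NC replicate 1 and -0.95 without HG-OE replicate 3. The rest called higher were MMP11, BCRP3 and KB-1125A3.11 near GGT5, SLC51B and UBAP1L near IGDCC3, AACSP1 near ZNF454, COL17A1 near NEURL1, ST3GAL1-DT near CCN4 and SLC9A3-AS1, which overlaps SLC9A3. Called lower were also RP4-738P15.1 near VSX1, RP11-27G14.4 near LMOD1 and AOC3 near RND2. Of these, COL17A1 and UBAP1L were not called without HG-OE replicate 3 or HG-NC replicate 1, UBAP1L also without HG-NC replicate 3, ST3GAL1-DT without HG-OE replicate 3 or HG-NC replicate 2, AOC3 without HG-NC replicate 2, and RP11-27G14.4 without HG-NC replicate 1.

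Overlaps with other genes limit what some members' counts show. Of the 32 members, 15 overlapped 22 genes of the table, 18 of them on the opposite strand. The libraries were made with a directional kit, but the strand setting of the counting is not given in the sources used here, so reads of a member and of an antisense partner cannot be told apart. CYP11A1 shared its locus with the antisense long noncoding RNA CTD-2311M21.3, which had 0, 0 and 0 counts in HG-NC and 22, 25 and 10 in HG-OE, close to the 21, 24 and 11 of CYP11A1. The antisense RNA RP11-252H14.1 in CSMD3 had 0, 0 and 0 counts in HG-NC and 5, 6 and 4 in HG-OE. Both partners were counted in HG-OE libraries and not in HG-NC.

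SLC9A3 lay in a locus with 3 overlapping genes. Its antisense RNA SLC9A3-AS1 had 242, 248 and 300 counts in HG-NC and 591, 647 and 529 in HG-OE, for a log2 fold change of 1.04 ± 0.0970 (SE, edgeR adjusted p = 1.11e-06), which was 0.97 and under the 2-fold threshold without HG-OE replicate 2, and 1.00 and just under it without HG-NC replicate 2. PP7080, on the strand of SLC9A3, had 229, 234 and 217 counts in HG-NC and 462, 451 and 434 in HG-OE, for a log2 fold change of 0.86 (edgeR adjusted p = 3.24e-06). EXOC3, antisense to SLC9A3, had a log2 fold change of 0.43 (edgeR adjusted p = 1.00e-04). All 3 genes had far more counts than the 3, 3 and 3 and the 6, 14 and 7 of SLC9A3. SLC7A10 overlapped LRP3, an antisense gene of the lipoprotein receptor family, which had 190, 219 and 284 counts in HG-NC and 401, 402 and 690 in HG-OE, for a log2 fold change of 0.99 (edgeR adjusted p = 5.15e-04), short of the 2-fold threshold. It passed that threshold without HG-NC replicate 3 or without HG-OE replicates 1 or 2, at 1.12 to 1.14. RARRES1 overlapped MFSD1 with 1621 to 1900 counts in HG-NC and 1963 to 2073 in HG-OE, and CATSPER3 overlapped PCBD2 on the same strand with 232 to 293 and 412 to 419. What part reads of these partners had in the members' counts was not tested.

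Genes that work with the members were listed from general knowledge in 25 sets, after the members were known. Of 206 such genes in the table, 148 were tested, 9 were called higher (6.08%) and 5 lower (3.38%), against 3.69% and 2.13% of all genes tested. The median log2 fold change was -0.01. The counts are small, and 12 of the 25 sets held a called gene. Telomerase and shelterin, the complexes TERT works with, had 12 of 12 genes tested and 0 called by edgeR. For the Notch pathway of NEURL1 and DLL4, 15 of 17 genes were tested, 0 were called higher and JAG1 was called lower, with 9665, 10185 and 10518 counts in HG-NC and 5354, 5475 and 5426 in HG-OE. The log2 fold change of JAG1, a Notch ligand, was -1.02 ± 0.0353 (SE, edgeR adjusted p = 1.70e-10), so it fell while the ligand gene DLL4 was a member. Pyrimidine breakdown beside DPYS, hedgehog reception beside GAS1, the nexin-dynein complex beside IQCA1 and interleukin-21 signalling beside IL21R also held 0 called genes among 4, 8, 8 and 6 tested.

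For several members a gene of the same machinery had few counts. STAR, which brings cholesterol to CYP11A1, had 0, 1 and 0 counts in HG-NC and 0, 0 and 3 in HG-OE. NR5A1, the factor that activates steroid enzymes, had 0 in 5 libraries and 3 in HG-OE replicate 3. Other genes of that set were counted. CYP17A1 had 18, 17 and 16 counts in HG-NC and 39, 28 and 33 in HG-OE and was not called. TSPO, FDX1 and FDXR had at least 228 counts in every library and were not called. IL2RG, the common chain that IL21R needs for signalling, had 0, 0 and 1 counts in HG-NC and 0, 0 and 24 in HG-OE. ERBB4, the receptor of NRG3, had 4, 9 and 6 counts in HG-NC and 4, 3 and 41 in HG-OE. Outside replicate 3, counts of STAR, NR5A1, IL2RG and ERBB4 were thus at or near 0 or no higher in HG-OE. The partners KCND2 and KCND3 of DPP10 had at most 9 counts in every library but HG-OE replicate 3, where KCND2 had 16. Other genes of the DPP10 set were counted. KCND1 had 34, 44 and 35 counts in HG-NC and 73, 52 and 53 in HG-OE and was not called. KCNIP3 had at least 337 counts in every library and was not called. MYOCD, the activator of the smooth muscle program of LMOD1, had 0, 0 and 1 counts in HG-NC and 0, 0 and 28 in HG-OE, and the CSMD3 relatives CSMD1 and CSMD2 had at most 1 count in any library.

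Other partners rose with their member. TAGLN, an actin-binding gene of smooth muscle, had 521, 585 and 654 counts in HG-NC and 7425, 7257 and 6772 in HG-OE, for a log2 fold change of 3.49 ± 0.0580 (SE, edgeR adjusted p = 1.83e-13), beside LMOD1, and was the only called gene of 8 tested in that set. CACNA2D3, an auxiliary subunit of the channels that hold CACNB2, had 54, 60 and 76 counts in HG-NC and 289, 295 and 291 in HG-OE, for a log2 fold change of 2.08 ± 0.129 (SE, edgeR adjusted p = 2.79e-08). CHST2, a sulfotransferase like CHST6, had 24, 48 and 45 counts in HG-NC and 203, 238 and 239 in HG-OE, for a log2 fold change of 2.42 ± 0.192 (SE, edgeR adjusted p = 2.51e-07). In these 3 genes the HG-OE libraries were even and far above HG-NC. CACNA2D3 was the only called gene of 5 tested in the CACNB2 set. The others were CACNB4, CACNA2D1, CACNB1 and CACNB3, with log2 fold changes of -0.85, -0.19, 0.04 and 0.16. Of the channel genes not tested, CACNA1A had 7, 9 and 21 counts in HG-NC and 2, 4 and 6 in HG-OE. CACNA1D had at most 9 counts in any library, and CACNA1B, CACNA1C, CACNA1E and CACNA1S had at most 2. NPFFR2, the relative of NPFFR1, had 8, 17 and 18 counts in HG-NC and 48, 42 and 68 in HG-OE, for a log2 fold change of 1.75 ± 0.315 (SE, edgeR adjusted p = 3.67e-04). SLC9A2, a sodium-proton exchanger like SLC9A3, had 26, 24 and 26 counts in HG-NC and 46, 68 and 86 in HG-OE, for a log2 fold change of 1.27. QRFPR, another receptor of RF-amide peptides, had 616, 647 and 633 counts in HG-NC and 472, 509 and 427 in HG-OE and was not called, with a log2 fold change of -0.55 (edgeR adjusted p = 5.22e-05). Receptors of this group therefore did not share a direction.

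LAMA1, a laminin chain that binds dystroglycan as EGFLAM does, was called higher with a log2 fold change of 1.20 (edgeR adjusted p = 1.70e-08). In the sets of NRG3 and RARRES1, ERBB3 and CYP26B1 were called higher, but 572 of the ERBB3 counts and 150 of the CYP26B1 counts were in HG-OE replicate 3. Without that library their log2 fold changes were 0.74 and 0.25 and neither was called, and CYP26B1 was also not called without any single HG-NC replicate. Relatives of some members were called lower. NRG1, the neuregulin relative of NRG3, had 3616, 3922 and 3700 counts in HG-NC and 1709, 1697 and 1559 in HG-OE, for a log2 fold change of -1.30. RND1 fell with -1.34, CCN3 with -1.12 and RNF43, a ubiquitin ligase that R-spondin receptors such as LGR6 act on, with -1.32. A paralog with many counts therefore fell beside a member with few for NRG3, RND2 and CCN4.

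Markers of other tissues were checked in 13 lists, and 0 of the 32 members were in any of them. The lists were short and written by hand. SLC9A3 was not put on that of the proximal tubule, and smooth muscle, adrenal gland, retina and cornea had no list. With 32 members among 16866 genes, lists and families of this size would hold few or none by their size alone. Nothing about the members is therefore read from these counts. By family name, 1 member was among 162 voltage-gated and related channel genes (CACNB2), 2 among 327 solute carriers (SLC7A10 and SLC9A3), 1 among 79 growth factors (NRG3), 1 among 184 developmental transcription factors (FOXQ1), 1 among 522 zinc finger genes (ZNF454) and 1 among 141 interleukin and TNF family genes (IL21R). No member was among 39 keratins or 99 collagens and secreted matrix genes, but these counts are incomplete, because the names used for G protein-coupled receptors, channels and homeobox factors did not reach NPFFR1, LGR6, CATSPER3 and VSX1. Beside the shares of 3.69% called higher and 2.13% called lower over all genes, the lists of tissues from which members are best known held few tested genes. Neuron and synapse markers summed to 57.2 to 63.1 CPM in HG-NC and 63.4 to 67.6 CPM in HG-OE, with 4 of 13 tested called higher and 2 lower. Testis and germ line markers, of the tissue of CATSPER3, summed to 138 to 141 CPM in HG-NC and 183 to 184 CPM in HG-OE, with 2 of 9 called higher and 0 lower. Endothelium markers, of the tissue of DLL4, summed to 19.5 to 22.2 CPM in HG-NC and 11.9 to 18.9 CPM in HG-OE, with 1 of 6 called higher and 2 lower. The testis sum was thus higher in every HG-OE library and the endothelium sum lower. Markers of T and NK lymphocytes, which use IL21R, summed to 5.37 to 6.56 CPM in HG-NC and 4.11 to 5.66 CPM in HG-OE, with 0 of 4 called higher and 1 lower, and those of B lymphocytes and plasma cells summed to 6.11 to 8.18 CPM and 9.49 to 10.5 CPM, with 1 of 2 called higher and 1 lower. Skeletal and heart muscle markers, of the tissue of CACNB2, summed to 202 to 219 CPM in HG-NC and 257 to 263 CPM in HG-OE, with 0 of 6 called higher and 1 lower. Proximal tubule markers, of the tissue of SLC9A3, summed to 57.4 to 60.4 CPM in HG-NC and 71.95 to 87.9 CPM in HG-OE, with 0 of 9 called by edgeR. Sums of this kind can rest on few genes. What part other cells or library quality had in the members' counts was not tested.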

How the data were processed

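RNA-seq libraries of poly(A) RNA from HK-2 cells, 3 HG-NC and 3 HG-OE, were made with a directional kit. After trimming, reads were aligned with HISAT2 to GRCh38 by the authors. They deposited raw counts of uniquely mapped pairs for each gene and also deposited FPKM, rounded to 2 decimals. The paper names ComBat_seq, and whether it changed these counts is not stated. Replicates are named biological replicates; if they shared a culture, p-values measure technical spread only. Mannitol libraries and splicing were not analysed here.

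The members were chosen with earlier results of these data known, as were the marker lists and families, which were written from general knowledge. The sets of partner genes were written after the members were known and before the partners' values were read. Named were all members, called neighbours, called partners and partners at or near 0 (some results are not reported here); any further gene was picked with its values known.

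Counts were tested in R 4.3.3 with edgeR 4.0.16 (TMM, default low-count filter, quasi-likelihood test, Benjamini-Hochberg adjustment over 17142 genes). Calls asked for a change of 2-fold or more and an adjusted p below 0.05, as in the study. Totals were 25507595 to 29444841 counts per library, and a count of 0 allows up to 3. Ratios of members compare CPM of summed counts with exact 95% intervals for counting error only. Positions came from GENCODE 44 by Ensembl ID, for 31725 genes, and promoters from RefSeq (GRCh38.p14). Alternatives used DESeq2 1.42.0, limma 3.58.1 on log2(FPKM + 1) and log2(FPKM + 0.1), other filters, distances and thresholds, the replicate block and each library left out. The steps were tested on simulated data.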

Additional observations from a re-analysis of the deposited data

How the results depend on the processing

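The 997 genes called between the groups became 1539 without the low-count filter, 617 with at least 10 counts in every library, 144 and 138 with limma on log2(FPKM + 1) with and without the filter, and 8887 without the fold threshold. In that order the 14 neighbours called higher became 26, 9, 2, 2 and 119, and the 5 called lower became 5, 3, 1, 1 and 75. Limma on log2(FPKM + 0.1) called 3 neighbours lower, and DESeq2 called 12 higher. Within 100 kb 5 were called higher and 1 lower, within 2 Mb 37 and 24, and among protein-coding neighbours 8 and 2. Leaving out a library gave 989 to 1124 genes called, 12 to 19 neighbours higher and 4 to 6 lower. The 32 members became 7 with at most 1 count in HG-NC and at least 6 in HG-OE, 13 with at most 3 and at least 10, 5 with at most 1 and at least 10, and 20 with counts scaled to the smallest library total. The 5 genes of the rule turned around became 1, 0, 0 and 3, and 3 by FPKM of at most 0.02 and at least 0.05, a rule that 25 genes, 11 of them members, met in the direction of the members. With a library left out, 40 to 54 genes met the members' rule (54 without HG-NC replicate 3, 52 without HG-OE replicate 1). The rule turned around was then met by 7 to 15 genes. Their numbers were 10 and 8 without HG-NC replicates 1 and 2, and 12, 11 and 15 without HG-OE replicates 1, 2 and 3. A library left out means fewer conditions to meet. The largest number for the rule turned around came without HG-OE replicate 3, and the largest for the members' rule without HG-NC replicate 3. Causes of these differences were not tested. Of the log2 fold changes of named genes under the alternatives, 498 kept their call, 87 lost it, 3 gained it and 0 were reversed. At these depths, members at 6 to 9 counts cannot be told from genes just outside the rule.

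Over all genes, same-numbered libraries did not deviate together (correlations of -0.0273, 0.0301 and -0.000993 over 17142 genes), so the numbers were not taken to pair the samples. Such a correlation hardly responds to few genes. Both replicate 3 libraries held liver transcripts, as with ALB at 78 counts in HG-NC and 4359 in HG-OE, and whether they are linked was not tested. With the replicate block, 990 genes were called, 14 neighbours higher and 5 lower, and CYP26B1 lost its call at a log2 fold change of 0.87.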

Other observations

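Genes of other types met the same rule in 44 cases, 32 of them long noncoding RNAs, against 6 cases, 5 of them long noncoding RNAs, with the groups exchanged. LINC02496 had 0 counts in every HG-NC library and 27, 40 and 30 in HG-OE, and LINC02551 had 0, 3 and 1 counts in HG-NC and 23, 30 and 30 in HG-OE. CARMN, a noncoding RNA known from smooth muscle like LMOD1, had 0, 0 and 1 counts in HG-NC and 9, 6 and 6 in HG-OE. These were even across HG-OE. Genes of short structural RNAs were not, with 31, 8 and 301 counts of RNA5-8SN3, 6, 6 and 115 of RNY5 and 7, 8 and 80 of RNY4 in HG-OE replicates 1 to 3, beside at most 3 counts in any HG-NC library. These genes were chosen for mention after their values were seen.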
